A study of Homo sapiens with 12 samples.

Results

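The genes described here encode the matrix metalloproteinases (MMPs), the ADAMTS proteinases and the tissue inhibitors of metalloproteinases (TIMPs). They were chosen by symbol alone: every row of the count table whose symbol is MMP, ADAMTS or TIMP followed by a number was a member, which gave 45 of 23434 rows, 22 MMP, 19 ADAMTS and 4 TIMP genes. Newly made RNA was sequenced after labelling with 5-ethynyl-uridine (EU-seq) in U2OS-MycER cells. These are osteosarcoma cells of human origin with a Myc protein joined to the ligand-binding part of the estrogen receptor, which 4-hydroxytamoxifen (OHT) switches on. All 12 libraries came from cells given doxycycline (1 µg/mL) to express a hairpin RNA, arrested with nocodazole (100 ng/mL, 8 h), collected by shake-off, released for 12 h and pulsed with 0.5 mM EU for 2 h. The groups of 3 libraries each were shNT (non-targeting hairpin), shNT+OHT (the same hairpin with 300 nM OHT for 40 h), shCDK12 (a hairpin against CDK12, a kinase of RNA polymerase II) and shCDK12+OHT (both). In each sample 40 µg of human RNA was mixed with 10 µg of mouse RNA. The labels do not say that replicates were separate cultures, so p-values measure only the spread between these libraries. The cells carry the fusion protein in every group, and no line without it was analysed here.

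MMPs are zinc-dependent endopeptidases that are made as inactive precursors and cut collagens, proteoglycans and other proteins outside the cell. ADAMTS enzymes share the zinc-binding catalytic fold, carry thrombospondin repeats that hold them to the matrix, and cut proteoglycans, procollagens and a few soluble substrates. TIMPs bind the active site of MMPs and block them, and TIMP3 also inhibits some ADAMTS enzymes. Osteoblasts and chondrocytes use MMP13, MMP14 and several ADAMTS enzymes to remodel bone and cartilage matrix, and AP-1 and RUNX factors are textbook regulators of several MMP promoters.

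Promoter sequences are shown for 5 members whose RefSeq window (GRCh38.p14, 250 bases before to 50 bases after the start) held a searched motif and whose level or change is described below; these 5 were picked after their values had been seen. Each line gives the 200 bases before the start, 5′ to 3′ on the strand of the gene. Capitals mark the motif matches, which were searched on both strands. The letters TGANTCA, where N is any base, stood for a loose form of the AP-1 site. CACGTG stood for the E-box, which Myc binds with its partner Max. For the RUNX core the letters were TGTGGT, whereas the TATA box was searched as TATAAA. The marked matches do not overlap one another.
ADAMTS6, chr5:65481921-65482120, minus strand, E-box in capitals: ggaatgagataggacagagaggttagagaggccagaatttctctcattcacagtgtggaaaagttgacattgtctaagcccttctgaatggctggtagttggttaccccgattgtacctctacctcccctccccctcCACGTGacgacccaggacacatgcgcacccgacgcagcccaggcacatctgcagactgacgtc
ADAMTS12, chr5:33891991-33892190, minus strand, AP-1 site in capitals: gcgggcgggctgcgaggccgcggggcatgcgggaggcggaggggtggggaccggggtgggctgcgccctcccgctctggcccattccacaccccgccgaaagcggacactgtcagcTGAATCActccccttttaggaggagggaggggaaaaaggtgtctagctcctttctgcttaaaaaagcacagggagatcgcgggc
MMP10, chr11:102780629-102780828, minus strand, AP-1 site and TATA box in capitals: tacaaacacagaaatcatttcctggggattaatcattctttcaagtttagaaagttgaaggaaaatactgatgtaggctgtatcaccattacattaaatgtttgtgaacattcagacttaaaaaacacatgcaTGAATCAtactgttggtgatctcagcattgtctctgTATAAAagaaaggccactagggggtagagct
TIMP1, chrX:47582236-47582435, plus strand, RUNX core in capitals: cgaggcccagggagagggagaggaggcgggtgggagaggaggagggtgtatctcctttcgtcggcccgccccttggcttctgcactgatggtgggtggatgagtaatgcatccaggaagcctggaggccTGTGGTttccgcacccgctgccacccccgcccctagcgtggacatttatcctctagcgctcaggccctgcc
MMP14, chr14:22836385-22836584, plus strand, RUNX core on the opposite strand in capitals: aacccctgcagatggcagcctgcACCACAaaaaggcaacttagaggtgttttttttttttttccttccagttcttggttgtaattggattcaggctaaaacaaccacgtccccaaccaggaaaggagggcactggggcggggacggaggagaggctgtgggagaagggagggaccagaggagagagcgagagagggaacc

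Windows were held for 26 of the 45 members (27 windows). The AP-1 letters were in 4 of the 27 (ADAMTS12, MMP7, MMP10 and MMP20), against 7.71% of all 35116 windows. They read TGAGTCA in MMP7 and TGAATCA in ADAMTS12, MMP10 and MMP20. The E-box letters were in 3 (ADAMTS6, ADAMTS17 and MMP21), against 7.26%, and the RUNX core letters in 3 (TIMP1, MMP14 and ADAMTS17), against 13.1%. The TATA box letters were in 7 (MMP7, MMP8, MMP10, MMP20, MMP21, MMP26 and ADAMTS10), against 11.5%. In MMP7 and MMP10 the AP-1 match began 67 bases before the start in both, with the TATA match 30 and 31 bases before it. A match is a stretch of letters, and binding was not measured here. The MMP7, MMP10 and MMP20 genes belong to a row of 9 MMP genes on chromosome 11, in the order MMP7, MMP20, MMP27, MMP8, MMP10, MMP1, MMP3, MMP12 and MMP13, with 0 other protein-coding genes between them in RefSeq.

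Total counts per library ranged from 1928373 to 5227279 in shNT, 1251695 to 3666406 in shNT+OHT, 4142570 to 9400045 in shCDK12 and 5378438 to 10447836 in shCDK12+OHT, so low members were measured least precisely in shNT+OHT. CDK12, the targeted gene, had 323, 289 and 300.2 CPM (counts scaled by library size) in shNT and 293, 277 and 298 CPM in shCDK12, which overlapped (log2 fold change -0.08, SE 0.08, edgeR adjusted p = 0.445). It had 434, 356 and 401 CPM in shNT+OHT and 215, 208 and 218 CPM in shCDK12+OHT, without overlap (log2 fold change -0.88, SE 0.11, edgeR adjusted p = 0.000107). The level of CDK12 therefore does not check the shCDK12 label, and shCDK12 below means the libraries labelled shCDK12. The mean level of CDK12 was 304, 397, 289 and 214 CPM in shNT, shNT+OHT, shCDK12 and shCDK12+OHT, so it rose with OHT in the first arm and was lower with OHT in the libraries labelled shCDK12. With the labels of shCDK12 and shCDK12+OHT exchanged, CDK12 would be at 214 against 304 CPM without OHT and 289 against 397 CPM with it. It would then be lower in both hairpin comparisons and higher with OHT in both arms, without overlap of libraries. These libraries hold newly made RNA from a 2 h pulse, and total CDK12 RNA and protein were not measured in them. How far the hairpin lowered CDK12 therefore cannot be seen here, and whether the labels were exchanged was not tested. Such an exchange would turn each direction of OHT in that arm, and would also alter both comparisons of shCDK12 with shNT and the interaction, so counts with these labels exchanged, an alternative chosen after seeing the data, are given beside the main ones. Of 9 markers of the osteoblast lineage each had counts in at least 1 library, but BGLAP was at 0 in all shNT and shNT+OHT libraries and IBSP at 0 in those of shNT+OHT. The summed level of the 9 moved with the groups, at 531 to 596 CPM in shNT, 359 to 368 in shNT+OHT, 187 to 199 in shCDK12 and 297 to 307 in shCDK12+OHT, and its part in the results was not tested. RUNX2, COL1A1 and SPARC made up most of that sum and were the only 3 of the 9 high enough for the tests. SP7, COL1A2 and SPP1 had at most 13, 5 and 24 counts in any library. Blood, endothelial and epithelial marker lists summed to at most 34.8, 9.03 and 15.5 CPM in any library.

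Most members gave little newly made RNA. MMP26 was at 0 counts in all 12 libraries, where 0 counts allow up to 3 counts in each (counting error only). A further 21 members (ADAMTS2, ADAMTS4, ADAMTS7, ADAMTS8, ADAMTS9, ADAMTS10, ADAMTS13, ADAMTS14, ADAMTS18, ADAMTS19, MMP1, MMP7, MMP8, MMP11, MMP12, MMP17, MMP20, MMP21, MMP27, MMP28 and TIMP4) had at most 65 counts in any library and were too low for the tests, which took genes with a mean normalized count above 32. The remaining 23 were tested in at least 1 comparison and 14 in all 5. Together the 45 members held 0.228% to 0.243% of the counts in shNT, 0.216% to 0.242% in shNT+OHT, 0.174% to 0.178% in shCDK12 and 0.301% to 0.313% in shCDK12+OHT. ADAMTS6 and TIMP1 alone made up most of these counts.

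**Figure D1:**
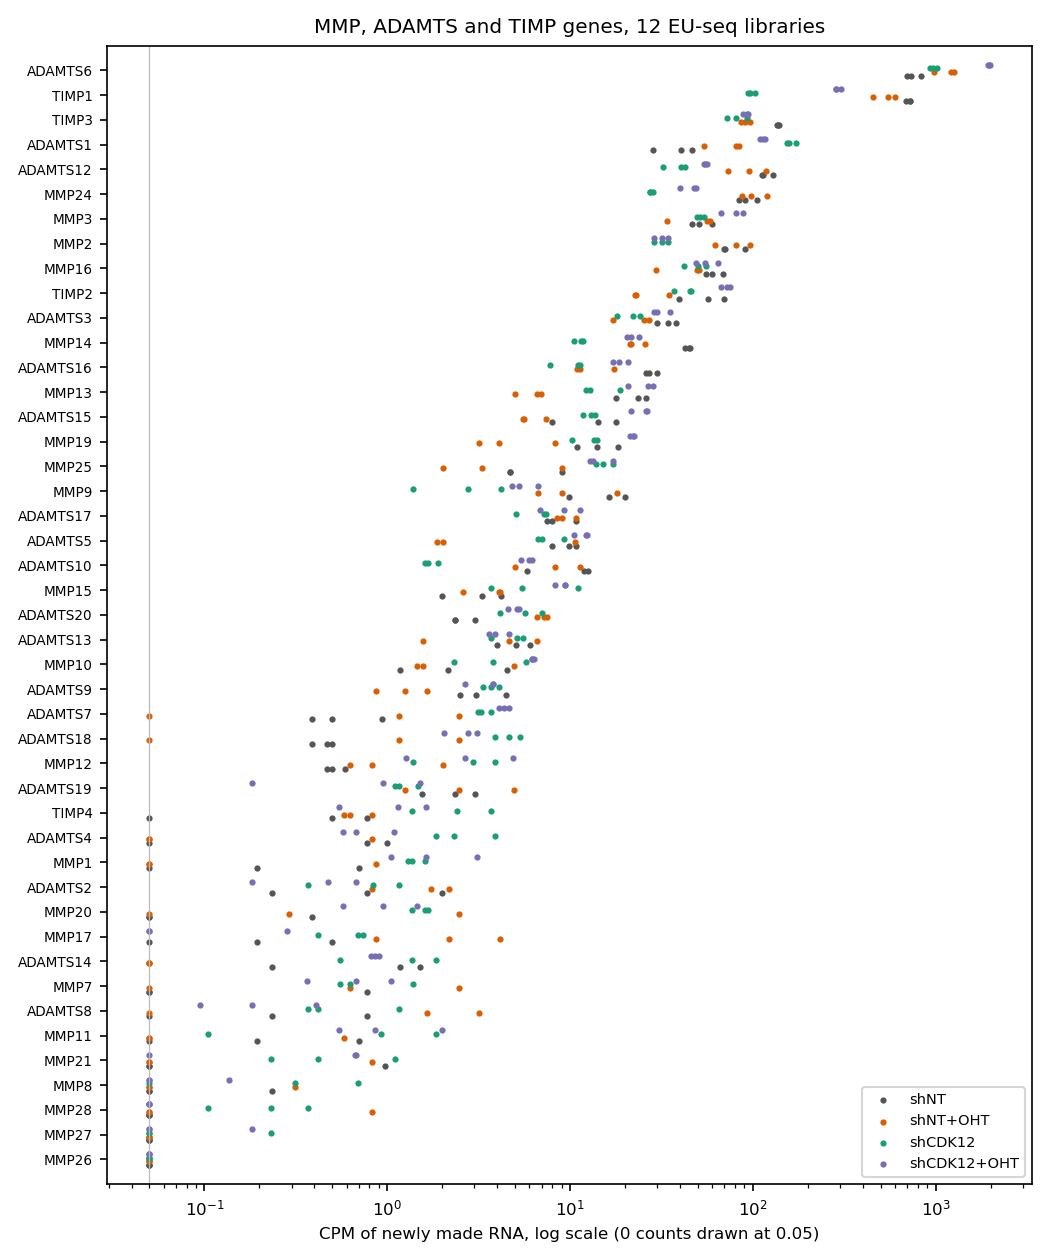
Each point is the level of 1 member in 1 of the 12 libraries, in CPM on a log axis, with the 45 members in order of level and libraries at 0 counts drawn at 0.05. ADAMTS6 and TIMP1 stand at the top, and MMP26 is at 0 in every library.

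Levels between genes were compared per kilobase of exon (GENCODE v44 on hg38), which assumes that reads were counted over exons. In shNT, TIMP1 had the highest level per length, 493 CPM per kb ± 14.7 (SD, n = 3), followed by ADAMTS6 at 88.5 ± 8.33. TIMP3 at 29.9 ± 0.471 and MMP3 at 28.3 ± 3.79 came next, and their libraries overlapped. MMP24 at 21.4 ± 2.38 was lower, and MMP2 followed at 16.3 ± 2.50, ranges that do not overlap by a narrow margin (19.3 against 19.2 CPM per kb). In shCDK12+OHT the order of the leading genes was different, with ADAMTS6 at 228 ± 3.27 above TIMP1 at 202 ± 7.55 CPM per kb and no overlap between their libraries. In shCDK12 ADAMTS6 was also first, at 114 ± 5.12 against 67.6 ± 3.18 CPM per kb for TIMP1. MMP3 at 27.8 ± 1.12 and ADAMTS1 at 22.1 ± 1.42 CPM per kb came after them, where ADAMTS1 had been at 5.28 ± 1.25 in shNT.

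Upon MycER activation in shNT cells, the 3 TIMP genes tested fell, together with the collagenase genes MMP13 and MMP14. Of 15 members tested, 8 were called, 2 higher (ADAMTS1, ADAMTS6) and 6 lower (TIMP1, TIMP2, TIMP3, MMP13, MMP14, ADAMTS16), against a background of 17.9% of 9994 genes (9.37% higher, 8.49% lower). By family, 2 of 7 MMP, 3 of 5 ADAMTS and 3 of 3 TIMP genes tested were called. The median log2 fold change was -0.54 over the members tested and -0.03 over all genes tested. MMP13 averaged under the filter of 32 in shNT+OHT and passed it through shNT, so a call lower was favoured. The 8 calls became 4 of 14 without shNT replicate 2 (6.87% of all genes), 4 of 15 without shNT replicate 3 (8.09%), 5 of 15 without shNT+OHT replicate 3 (11.1%), and 4 of 12 with all libraries thinned to the smallest total (10.5% of all genes), while 1 fit of all 12 libraries gave 13 of 20 (28.5% of all genes). In shCDK12 cells OHT went with higher levels: 14 of 22 members tested were called, 13 higher and 1 lower (ADAMTS1), against 49.2% of 12389 genes (27.6% higher, 21.6% lower), with medians of 0.60 and 0.05. By family, 5 of 10 MMP, 7 of 9 ADAMTS and 2 of 3 TIMP genes tested were called, and thinning left 4 of 11 members called (13.6% of all genes). With the labels of shCDK12 and shCDK12+OHT exchanged, the same 14 calls would be 1 higher and 13 lower. These OHT comparisons share no library. Of 14 members tested in both, 11 changed sign between them (78.6%, 10 of them lower in shNT and higher in shCDK12), as did 7090 of 9952 genes (71.2%), so the share of sign changes was near that of all genes. With those labels exchanged, 3 of the 14 members (21.4%) and 28.8% of all genes would change sign, so whether most signs differ or are shared rests on these labels.

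**Figure D2:**
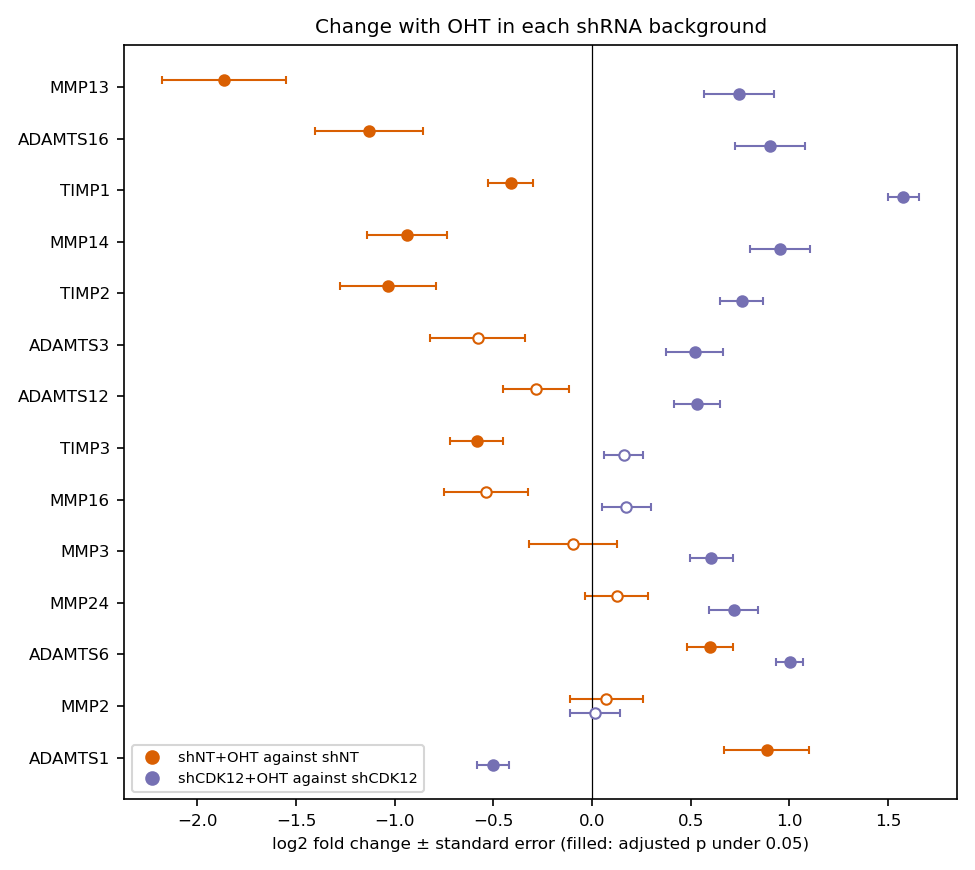
Points are log2 fold changes with OHT for the 14 members tested in both hairpin backgrounds, with standard errors as bars, and filled points have an adjusted p under 0.05. In 11 members the points lie on opposite sides of 0, ADAMTS6 is to the right in both backgrounds, and ADAMTS1 is the member that is higher in shNT and lower in shCDK12.

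The comparison of shCDK12 with shNT, both without OHT, gave 15 called of 20 members tested, 3 higher (ADAMTS1, ADAMTS6, MMP25) and 12 lower, against 62.5% of 11444 genes (29.8% higher, 32.8% lower). Medians were -0.50 over the members and -0.03 over all genes tested. With OHT present in both arms, shCDK12+OHT against shNT+OHT gave 13 called of 20, 9 higher and 4 lower (TIMP1, MMP2, MMP24, ADAMTS12), against 46.3% of 11120 genes (24% higher, 22.2% lower), with medians of 0.54 and 0.04. Of the 9 higher, MMP13, MMP19, MMP25, ADAMTS5 and ADAMTS15 averaged 20.2 to 26 normalized counts in shNT+OHT and passed the filter through shCDK12+OHT, so a call higher was favoured for them. Without OHT the same holds for MMP25, low in shNT and called higher, and for MMP9, low in shCDK12 and called lower. Thinning left 10 of 12 members called without OHT (40.1% of all genes) and 5 of 10 with it (25.5%), and without a filter on low counts 24 of 44 were called without OHT (11 higher, 13 lower, 39.6% of all genes). The difference between the OHT responses (the change in shCDK12 minus that in shNT, the interaction) was called for 17 of 20 members, 16 higher and 1 lower (ADAMTS1), against 46.1% of 11299 genes (26.1% higher, 20% lower), with medians of 0.96 and 0.10, and for 4 of 10 after thinning (24.2% of all genes). MMP13, MMP19, ADAMTS5 and ADAMTS15 were lowest in shNT+OHT, under the filter, and passed it through other groups. MMP9 was lowest in shCDK12 and passed through the shNT groups. A positive interaction was therefore favoured for these members. With the labels of shCDK12 and shCDK12+OHT exchanged, the interaction was called for 3 of 20 members, all lower (TIMP1 at -1.17, MMP24 at -0.85 and ADAMTS6 at -1.60), against 6.06% of all genes. The same exchange gave 16 of 21 called without OHT (7 higher, 9 lower, 56.1% of all genes) and 11 of 17 with OHT (6 higher, 5 lower, 39.9%). It turned the sign of 7 of 20 members without OHT, 4 of 17 with OHT and 8 of 20 in the interaction. The hairpin differences without and with OHT would then be 0.18 and 1.29 for MMP13, and 0.33 and 0.67 for TIMP2. In these bulk libraries, fewer cells that transcribe a gene and less new RNA per cell cannot be told apart.

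**Figure D3:**
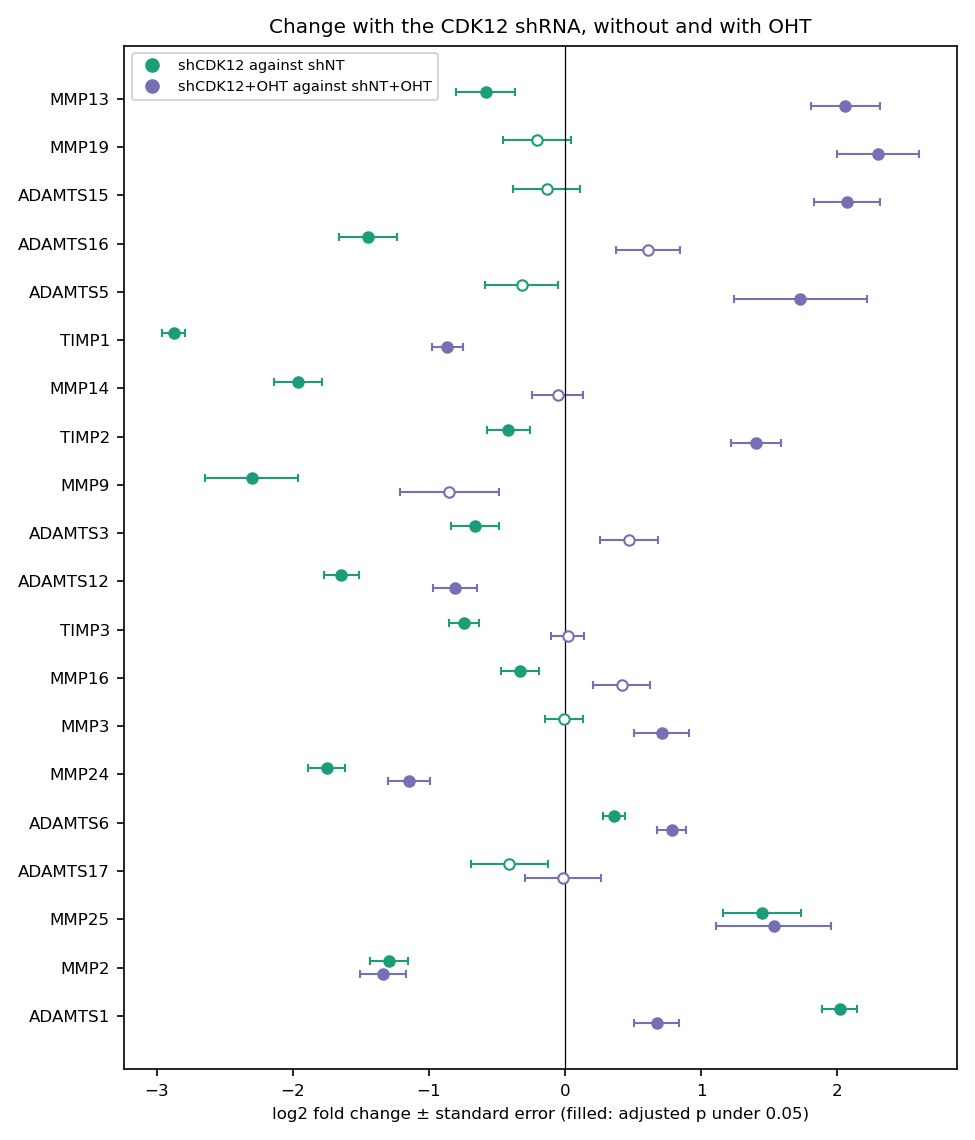
Points are log2 fold changes of shCDK12 against shNT, without and with OHT, for the 20 members tested in both comparisons, with standard errors as bars, and filled points have an adjusted p under 0.05. With the labels as deposited, TIMP1, MMP2, MMP24 and ADAMTS12 are left of 0 in both comparisons. MMP13 and TIMP2 are left of 0 without OHT and right of it with OHT.

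TIMP1 (NCBI Gene 7076), a secreted inhibitor of most MMPs, had 723, 729 and 689 CPM in shNT and 96.1, 94.1 and 103 CPM in shCDK12. Its level in shCDK12+OHT was 285, 286 and 304 CPM, and in shNT+OHT it was 553, 454 and 601 CPM. The groups stood fully apart, with shNT highest and shCDK12 lowest. TIMP1 was 7.33-fold lower in shCDK12 than in shNT (log2 -2.87, SE 0.08, edgeR adjusted p = 5.04e-19), the most negative log2 fold change of a member in any comparison. With OHT it fell by 0.41 on the log2 scale in shNT (SE 0.11, adjusted p = 0.0227) and rose 2.99-fold in shCDK12 (adjusted p = 8.95e-11), and the interaction was 1.98 (SE 0.14, adjusted p = 1.74e-09). The fall in shNT lost its call without any 1 of the 3 shNT libraries or without shNT+OHT replicate 2 (adjusted p 0.0549 to 0.1), where the change was -0.28 to -0.42. TIMP1 lies inside SYN1 on the opposite strand in RefSeq, and SYN1 had 2 to 48 counts. The promoter of TIMP1 printed above holds the RUNX core letters 71 bases before the start.

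TIMP2 (NCBI Gene 7077), which blocks MMPs and also joins MMP14 in activating the MMP2 precursor, had 69.3, 56.6 and 39.6 CPM in shNT and 34.8, 23.1 and 22.6 CPM in shNT+OHT. It had 45.2, 36.9 and 45.7 CPM in shCDK12 and 74.9, 67.1 and 72.6 CPM in shCDK12+OHT. The shNT libraries were the most spread and overlapped those of shCDK12. With OHT TIMP2 fell 2.05-fold in shNT (log2 -1.03, SE 0.24, edgeR adjusted p = 0.00975) and rose 1.69-fold in shCDK12 (adjusted p = 1.98e-05), with an interaction of 1.79 (SE 0.26, adjusted p = 1.72e-05). With OHT in both arms it was 2.65-fold higher in shCDK12 (adjusted p = 0.000163). The fall in shNT lost its call without shNT replicate 1 (log2 -0.84, adjusted p = 0.0744) or shNT+OHT replicate 3 (log2 -0.86, adjusted p = 0.0632). The difference between shCDK12 and shNT without OHT (log2 -0.42, adjusted p = 0.0268) lost its call by DESeq2 (adjusted p = 0.0688), with upper-quartile scaling (0.0752), in 1 fit of all libraries (0.0542), and without shNT replicate 1 (log2 -0.22, 0.29), shNT replicate 2 (0.0792) or shCDK12 replicate 2 (0.0828). CEP295NL overlaps TIMP2 on the same strand and had 1 to 193 counts.

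TIMP3 (NCBI Gene 7078), which stays bound to the matrix and also inhibits ADAMTS4, ADAMTS5 and ADAM17, had 137, 136 and 140 CPM in shNT. The other groups lay lower and overlapped each other, with 97.1, 86.6 and 90.5 CPM in shNT+OHT, 93.3, 81.3 and 72.7 CPM in shCDK12 and 92.6, 94.1 and 88.5 CPM in shCDK12+OHT. It fell by 0.59 on the log2 scale with OHT in shNT (SE 0.14, edgeR adjusted p = 0.00925), which missed the threshold without shNT replicate 3 (log2 -0.56, adjusted p = 0.056). It fell by 0.74 in shCDK12 against shNT (SE 0.11, adjusted p = 1.92e-06). The change with OHT in shCDK12 was 0.16 (SE 0.10, adjusted p = 0.188, or 0.0297 with log2 0.25 without shCDK12 replicate 1), and the interaction was 0.74 (SE 0.16, adjusted p = 0.000959). With all libraries thinned to 1251695 counts the interaction was 0.27 (adjusted p = 0.55). SYN3, on the opposite strand around TIMP3, had 0 to 25 counts. The remaining inhibitor, TIMP4, had 0 to 16 counts.

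**Figure D4:**
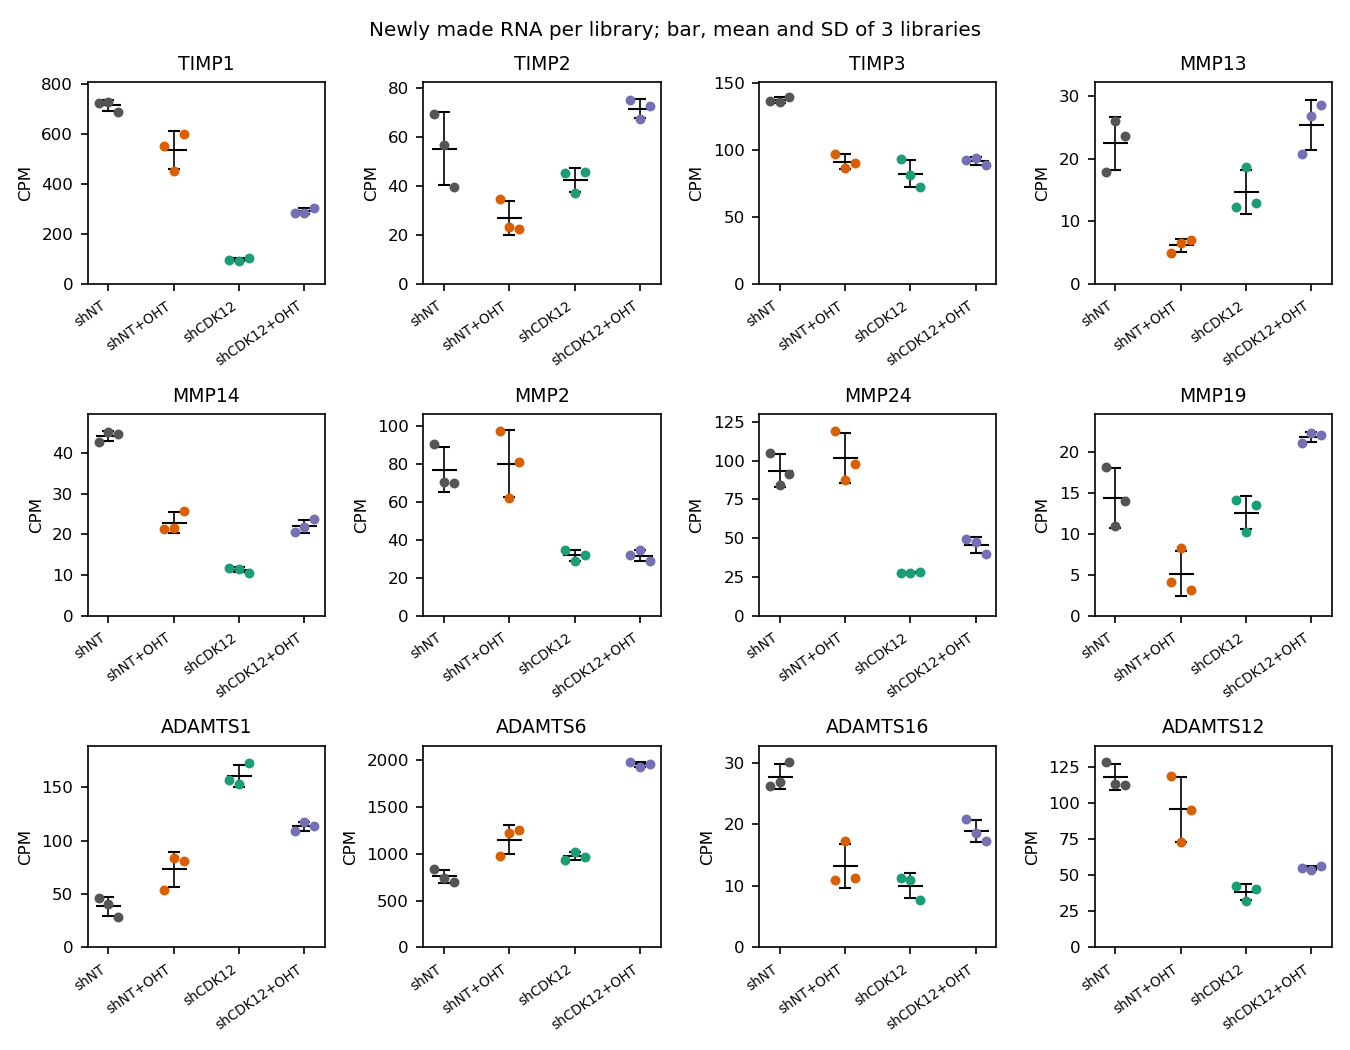
Levels of 12 members (picked after their values had been seen) in each library, in CPM on linear axes from 0, with the mean and SD of 3 libraries as bars. TIMP1 is highest in shNT and lowest in shCDK12, MMP13 is lowest in shNT+OHT, ADAMTS1 is highest in shCDK12, and ADAMTS6 is highest in shCDK12+OHT.

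Among the secreted MMPs, MMP13 (NCBI Gene 4322), the collagenase of cartilage and bone, had the largest interaction of the 20 members tested. The filter favoured a positive interaction for MMP13, as given above. Its level was 17.8, 26.0 and 23.6 CPM in shNT and 5.01, 6.599 and 6.96 CPM in shNT+OHT, on 8 to 24 counts per library in the latter. It was 12.3, 18.7 and 13.0 CPM in shCDK12 and 20.8, 26.7 and 28.5 CPM in shCDK12+OHT. The shNT+OHT libraries lay below all others. MMP13 fell 3.64-fold with OHT in shNT (log2 -1.86, SE 0.31, edgeR adjusted p = 0.0014) and rose 1.68-fold in shCDK12 (log2 0.74, SE 0.18, adjusted p = 0.00198), and the interaction was 2.63 (SE 0.35, adjusted p = 6.35e-06). With OHT in both arms it was 4.17-fold higher in shCDK12 (adjusted p = 0.000121). The shCDK12 difference without OHT was small (log2 -0.58, adjusted p = 0.0239, with overlapping libraries), and it lost its call without shNT replicate 2 (log2 -0.44, adjusted p = 0.162), shNT replicate 3 (0.0521), shCDK12 replicate 1 (0.0728) or shCDK12 replicate 3 (0.0943).

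MMP3 (NCBI Gene 4314), stromelysin-1, which cuts proteoglycans and activates other MMP precursors, had 46.4, 50.7 and 60.1 CPM in shNT, 33.8, 58.6 and 56.3 CPM in shNT+OHT, 51.2, 49.7 and 53.9 CPM in shCDK12 and 66.8, 80.6 and 88.0 CPM in shCDK12+OHT. The shCDK12+OHT libraries lay above the others, which overlapped. MMP3 rose 1.52-fold with OHT in shCDK12 (log2 0.60, SE 0.11, edgeR adjusted p = 0.000191) and its change in shNT was -0.10 (SE 0.22, adjusted p = 0.799). With OHT in both arms it was higher in shCDK12 by 0.71 on the log2 scale (adjusted p = 0.0138), or 0.46 without shNT+OHT replicate 1, and it lost the call without shCDK12+OHT replicate 3 (adjusted p = 0.0711). The interaction, 0.70 (SE 0.24, adjusted p = 0.0233), lost its call without shNT replicate 3, shNT+OHT replicate 1 (value 0.46), shCDK12+OHT replicate 2 or shCDK12+OHT replicate 3 (adjusted p 0.0513 to 0.0687). After thinning, MMP3 passed in none of these 3 comparisons (adjusted p 0.0508 to 0.199). MMP3 and MMP1 overlap WTAPP1, on the opposite strand, which had 0 to 36 counts.

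MMP10, stromelysin-2, whose promoter is printed above, had 5 to 65 counts. It was tested in shCDK12+OHT against shCDK12 alone, where 6.39, 6.18 and 6.17 CPM stood against 2.32, 3.78 and 5.74 CPM (log2 0.64, SE 0.28, edgeR adjusted p = 0.0643). MMP10 passed the threshold with the replicate number as a block (adjusted p = 0.0416) or without shCDK12 replicate 3 (log2 0.95, adjusted p = 0.0175). It averaged 26.6 normalized counts in shCDK12, under the filter of 32, and passed the filter through shCDK12+OHT (42.2). A higher level with OHT was therefore favoured for MMP10. The neighbouring genes of the row on chromosome 11 were close to 0: MMP27 had at most 1 count, MMP8 at most 3, MMP7 at most 11, MMP20 at most 13, MMP1 at most 17 and MMP12 at most 37. MMP3 and MMP13 thus carried most of the newly made RNA of the row.

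MMP19 (NCBI Gene 4327), a secreted MMP that cuts basement membrane proteins, had 18.3, 10.9 and 14.03 CPM in shNT and 4.07, 8.25 and 3.19 CPM in shNT+OHT, on 10 to 13 counts. It had 14.1, 10.3 and 13.5 CPM in shCDK12 and 21.2, 22.3 and 22.1 CPM in shCDK12+OHT. The OHT groups lay at the bottom and the top, and the groups without OHT overlapped each other. MMP19 rose by 0.82 on the log2 scale with OHT in shCDK12 (SE 0.16, edgeR adjusted p = 0.000376, and 0.0699 with log2 1.29 after thinning). It was 4.93-fold higher in shCDK12+OHT than in shNT+OHT (adjusted p = 0.000169), and the interaction was 2.49 (SE 0.40, adjusted p = 4.81e-05). Its mean count was too low for the test of OHT in shNT.

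The gelatinases cut denatured collagen. MMP2 (NCBI Gene 4313) had 90.4, 70.5 and 69.7 CPM in shNT, 97.1, 61.9 and 80.9 CPM in shNT+OHT, 34.5, 28.9 and 32.01 CPM in shCDK12 and 31.9, 34.5 and 28.7 CPM in shCDK12+OHT. All 6 shCDK12 libraries lay below all 6 shNT libraries, and OHT groups overlapped within each arm. MMP2 was lower in shCDK12 by 2.45-fold without OHT (log2 -1.29, SE 0.14, edgeR adjusted p = 2.78e-08) and 2.53-fold with it (log2 -1.34, SE 0.17, adjusted p = 0.00015). Its change with OHT was 0.07 (SE 0.18, adjusted p = 0.818) in shNT and 0.01 (SE 0.13, adjusted p = 0.934) in shCDK12, and the interaction was -0.07 (SE 0.23, adjusted p = 0.821). MMP9 had 9.84, 16.4 and 20.1 CPM in shNT and 1.39, 4.20 and 2.78 CPM in shCDK12, on 6 to 40 counts in the latter. MMP9 was 4.93-fold lower in shCDK12 (log2 -2.30, SE 0.34, adjusted p = 2.8e-06), and its change with OHT in shNT was -0.56 (SE 0.39, adjusted p = 0.346), or -0.23 without shNT+OHT replicate 3, -0.33 without shNT replicate 3 and -0.91 without shNT+OHT replicate 2. With OHT it had 9.09, 18.2 and 6.67 CPM in shNT and 5.30, 4.85 and 6.71 CPM in shCDK12, which overlapped (log2 -0.85, SE 0.36, adjusted p = 0.0764), and it passed without shNT+OHT replicate 1 (adjusted p = 0.0492) or shNT+OHT replicate 3 (adjusted p = 0.0264). In that comparison MMP9 averaged 23.9 normalized counts in shCDK12+OHT, under the filter, and passed it through shNT+OHT (47.5). A lower level in shCDK12+OHT was therefore favoured. The MMP9 interaction, 1.44 (SE 0.53, adjusted p = 0.032), lost its call without any 1 of 7 libraries, namely shNT replicates 2 and 3, shNT+OHT replicate 3, shCDK12 replicates 1 and 3, and shCDK12+OHT replicates 1 and 3 (adjusted p 0.0507 to 0.0933).

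The membrane-type MMPs act at the cell surface. MMP14 (NCBI Gene 4323), a collagenase that also activates the MMP2 precursor, had 42.6, 45.1 and 44.6 CPM in shNT and 21.3, 21.5 and 25.8 CPM in shNT+OHT. It had 11.8, 11.5 and 10.6 CPM in shCDK12 and 20.5, 21.7 and 23.8 CPM in shCDK12+OHT. The groups without OHT lay at the extremes and the OHT groups overlapped between them. MMP14 was 3.90-fold lower in shCDK12 than in shNT (log2 -1.96, SE 0.17, edgeR adjusted p = 6.51e-10), while with OHT in both arms the difference was -0.05 (SE 0.19, adjusted p = 0.836). With OHT it fell by 0.94 in shNT (SE 0.20, adjusted p = 0.00636, and 0.0519 after thinning) and rose by 0.95 in shCDK12 (SE 0.15, adjusted p = 6.07e-05), with an interaction of 1.89 (SE 0.24, adjusted p = 3.63e-06). The promoters of MMP14 and TIMP1 printed above hold the RUNX core letters, as does the window of ADAMTS17, which was not called in any comparison. RUNX2 itself was lower with OHT in shNT (log2 -0.70, adjusted p = 0.00388), higher with OHT in shCDK12 (log2 0.84, adjusted p = 6.85e-07) and lower in shCDK12 than in shNT (log2 -1.85, adjusted p = 8.75e-14). With OHT in both arms RUNX2 was at -0.28 (edgeR adjusted p = 0.0958), TIMP1 at -0.86 and MMP14 at -0.05. The RUNX core letters were in 3 of the 27 member windows, against 13.1% of all windows. Whether RUNX2 bears on these genes was not tested.

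MMP24 (NCBI Gene 10893), a membrane-type MMP known from the nervous system, had 105, 84.5 and 91.2 CPM in shNT, 119, 87.4 and 97.7 CPM in shNT+OHT, 27.6, 27.5 and 28.5 CPM in shCDK12 and 49.2, 47.6 and 39.9 CPM in shCDK12+OHT. The shNT groups overlapped, and both shCDK12 groups lay below them and apart from each other. MMP24 was 3.37-fold lower in shCDK12 than in shNT (log2 -1.75, SE 0.13, edgeR adjusted p = 4.43e-11) and 2.21-fold lower with OHT in both arms (adjusted p = 0.00018). It rose by 0.72 with OHT in shCDK12 (SE 0.12, adjusted p = 0.000111, and 0.348 after thinning), and the change in shNT was 0.12 (SE 0.16, adjusted p = 0.634). The interaction, 0.58 (SE 0.20, adjusted p = 0.0209), lost its call with upper-quartile scaling (adjusted p = 0.0703), after thinning (0.274), and without shNT replicate 1, shCDK12 replicate 2, shCDK12+OHT replicate 1 or shCDK12+OHT replicate 2 (0.0516 to 0.0673). MMP24OS, on the opposite strand, had 22 to 239 counts, and the strand setting of the counting is not given in the sources used here.

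MMP25, which is held at the membrane by a lipid anchor, went the other way. It had 4.69, 4.68 and 9.02 CPM in shNT, 9.09, 3.30 and 2.03 CPM in shNT+OHT, 13.9, 15.1 and 17.2 CPM in shCDK12 and 17.1, 12.9 and 13.4 CPM in shCDK12+OHT, so that all shCDK12 libraries lay above all shNT libraries. MMP25 was 2.73-fold higher in shCDK12 without OHT (log2 1.45, SE 0.28, edgeR adjusted p = 0.000104) and 2.89-fold higher with OHT (log2 1.53, SE 0.42, adjusted p = 0.0122). The latter rests on 4 to 29 counts per shNT+OHT library, and was 2.59 without shNT+OHT replicate 1 (adjusted p = 2.77e-05) and 0.97 without shNT+OHT replicate 3 (adjusted p = 0.0542). Its change with OHT was -0.09 in shCDK12 (adjusted p = 0.674), with an interaction of 0.07 (adjusted p = 0.927). MMP16, a membrane-type MMP, ranged from 29.45 to 68.7 CPM over the 12 libraries. Its change with OHT was -0.54 in shNT (SE 0.21, adjusted p = 0.0949, with 0.037 in 1 fit of all libraries and log2 -0.29 at 0.226 without shNT+OHT replicate 1) and 0.17 in shCDK12 (SE 0.13, adjusted p = 0.266). The lower MMP16 level in shCDK12 than in shNT (log2 -0.33, adjusted p = 0.0404) lost its call by DESeq2 (adjusted p = 0.0833), with upper-quartile scaling (0.126), in 1 fit of all libraries (0.114), after thinning (log2 -0.04, 0.921), and without shNT replicate 1 (0.0711), shNT replicate 2 (0.228) or shCDK12 replicate 3 (0.226). The MMP16 interaction, 0.73 (adjusted p = 0.0246), lost its call after thinning (0.38, adjusted p = 0.603) and without shNT replicate 2, shNT+OHT replicate 1 (0.48), shCDK12 replicate 3 or shCDK12+OHT replicate 3 (adjusted p 0.0594 to 0.0764). MMP15, tested for OHT in shCDK12 alone, had 4 to 87 counts and a change of 0.47 (SE 0.29, adjusted p = 0.184), or 0.92 without shCDK12 replicate 1 (adjusted p = 0.00333).

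ADAMTS6 (NCBI Gene 11174), an enzyme linked to fibrillin microfibrils, had the most counts of all members. It had 837, 737 and 699 CPM in shNT, 976, 1222 and 1255 CPM in shNT+OHT, 936, 1023 and 970.2 CPM in shCDK12 and 1984, 1928 and 1954 CPM in shCDK12+OHT. The shNT libraries were lowest and the shCDK12+OHT libraries highest, with the other groups between them. With the labels as deposited, it is the one member that was called higher in all 5 comparisons. With OHT it rose 1.51-fold in shNT (log2 0.60, SE 0.12, edgeR adjusted p = 0.00318) and 2.00-fold in shCDK12 (log2 1.00, SE 0.07, adjusted p = 4.91e-09). In shCDK12 it was higher by 0.36 without OHT (adjusted p = 0.000308) and by 0.78 with OHT (adjusted p = 0.000204). The interaction, 0.40 (SE 0.14, adjusted p = 0.0225), lost its call with upper-quartile scaling (0.29, adjusted p = 0.076), after thinning (0.0555), and without shNT replicate 1 (0.0792) or shCDK12 replicate 1 (0.0529). Its promoter printed above holds the E-box letters 63 bases before the start. ADAMTS17, whose window also holds them, was not called in any comparison. RefSeq places the pseudogenes RPS2P23 and RPEP1 within ADAMTS6, and how reads shared with their parent genes were counted is not given in the sources used here.

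The proteoglycanases of the family cut aggrecan and versican. ADAMTS1 (NCBI Gene 9510) had 46.6, 40.4 and 28.6 CPM in shNT, 54.2, 84.1 and 80.9 CPM in shNT+OHT, 157, 153 and 173 CPM in shCDK12 and 109, 117 and 114 CPM in shCDK12+OHT. The groups stood fully apart, in the reverse of the order seen for TIMP1. ADAMTS1 was 4.05-fold higher in shCDK12 than in shNT (log2 2.02, SE 0.13, edgeR adjusted p = 9.88e-13). With OHT it rose by 0.88 in shNT (SE 0.22, adjusted p = 0.0125) and fell by 0.50 in shCDK12 (SE 0.08, adjusted p = 8.16e-05), and its interaction of -1.37 (SE 0.22, adjusted p = 5.79e-05) was the only negative one called among the members. The rise in shNT lost its call without shNT replicate 2, shNT replicate 3 or shNT+OHT replicate 3 (log2 0.75 to 0.90, adjusted p 0.0541 to 0.065). After thinning, ADAMTS1 missed the threshold for OHT in shNT (adjusted p = 0.128), for OHT in shCDK12 (0.272) and for shCDK12 with OHT in both arms (log2 0.67 before and 0.64 after, 0.129).

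ADAMTS5, the main aggrecanase of mouse cartilage, and ADAMTS15, a related enzyme, moved differently from ADAMTS1. ADAMTS15 had 14.3, 17.8 and 8.02 CPM in shNT, 5.64, 7.42 and 5.51 CPM in shNT+OHT, 13.0, 11.9 and 13.7 CPM in shCDK12 and 21.6, 26.0 and 26.5 CPM in shCDK12+OHT. The shNT+OHT libraries were lowest and the shCDK12+OHT libraries highest. ADAMTS15 rose by 0.95 with OHT in shCDK12 (SE 0.15, edgeR adjusted p = 6.05e-05), was 4.21-fold higher in shCDK12+OHT than in shNT+OHT (adjusted p = 8.42e-05) and had an interaction of 2.19 (SE 0.37, adjusted p = 6.66e-05). ADAMTS5 had 9.84, 10.7 and 8.02 CPM in shNT and 1.88, 10.7 and 2.03 CPM in shNT+OHT, on 6 to 13 counts, with 6.72, 9.23 and 7.03 CPM in shCDK12 and 12.2, 12.4 and 10.5 CPM in shCDK12+OHT. The second shNT+OHT library stood away from the other two and overlapped shCDK12+OHT. The ADAMTS5 interaction was 2.04 (SE 0.54, adjusted p = 0.00416), and its difference with OHT in both arms, 1.73 (adjusted p = 0.0137), lost its call without shNT+OHT replicate 3 (log2 1.35, adjusted p = 0.0614). The rise of ADAMTS5 with OHT in shCDK12 (log2 0.59, adjusted p = 0.0216) lost its call by DESeq2 (adjusted p = 0.0655), in 1 fit of all libraries (0.139), and without shCDK12 replicate 3, shCDK12+OHT replicate 1 or shCDK12+OHT replicate 2 (0.0661 to 0.0891).

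ADAMTS12, which cuts the cartilage protein COMP and whose promoter printed above holds the AP-1 letters, had 128, 113 and 113 CPM in shNT, 119, 73.4 and 95.4 CPM in shNT+OHT, 42.6, 32.3 and 40.3 CPM in shCDK12 and 54.9, 53.8 and 56.2 CPM in shCDK12+OHT. All shCDK12 libraries lay below all shNT libraries. ADAMTS12 was 3.12-fold lower in shCDK12 without OHT (log2 -1.64, SE 0.13, edgeR adjusted p = 6.02e-11) and 1.75-fold lower with it (adjusted p = 0.00222, and 0.0646 after thinning). With OHT it rose by 0.53 in shCDK12 (adjusted p = 0.00104), its change in shNT was -0.28 (adjusted p = 0.259, with log2 -0.44 at 0.0238 without shNT+OHT replicate 1 and -0.11 at 0.629 without shNT+OHT replicate 2), and the interaction was 0.80 (SE 0.21, adjusted p = 0.0042). After thinning, the ADAMTS12 rise was 1.04 and the interaction 1.29, both still called.

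ADAMTS16 had 26.2, 26.9 and 30.1 CPM in shNT, 10.97, 17.3 and 11.3 CPM in shNT+OHT, 11.4, 11.02 and 7.77 CPM in shCDK12 and 20.8, 18.5 and 17.2 CPM in shCDK12+OHT. The shNT libraries were highest, and shNT+OHT overlapped both shCDK12 groups. ADAMTS16 fell 2.19-fold with OHT in shNT (log2 -1.13, SE 0.28, edgeR adjusted p = 0.012), rose 1.87-fold in shCDK12 (adjusted p = 0.000396) and had an interaction of 2.05 (SE 0.31, adjusted p = 2.45e-05). The fall lost its call without shNT replicate 2, shNT replicate 3 or shNT+OHT replicate 3 (log2 -1.02 to -1.16, adjusted p 0.0514 to 0.0582). ADAMTS16 was 2.73-fold lower in shCDK12 than in shNT (adjusted p = 2.31e-06), and with OHT in both arms the difference was 0.61 (adjusted p = 0.0521), which passed in 1 fit of all libraries (0.0334) and without shNT+OHT replicate 2 (log2 0.74, adjusted p = 0.0198).

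ADAMTS3, which trims procollagens and processes the growth factor VEGF-C, had 37.9, 30.1 and 34.6 CPM in shNT, 17.2, 27.2 and 25.5 CPM in shNT+OHT, 18.1, 24.0 and 22.0 CPM in shCDK12 and 28.7, 29.8 and 35.4 CPM in shCDK12+OHT. The shNT libraries lay above those of shNT+OHT and of shCDK12 and overlapped those of shCDK12+OHT. ADAMTS3 was lower in shCDK12 than in shNT (log2 -0.66, SE 0.18, edgeR adjusted p = 0.00222), rose by 0.52 with OHT in shCDK12 (adjusted p = 0.00625) and had an interaction of 1.11 (SE 0.27, adjusted p = 0.00245). Its change with OHT in shNT, -0.58 (SE 0.24), did not pass (adjusted p = 0.109), and passed in 1 fit of all libraries (0.039), while without shNT+OHT replicate 1 it was -0.37 (adjusted p = 0.238). ADAMTS17 and ADAMTS20 were tested in 4 and 1 comparisons with 0 calls. ADAMTS17 ranged from 5.09 to 11.4 CPM over the 12 libraries, with log2 changes from -0.41 to 0.47, and ADAMTS20 had a change of -0.20 with OHT in shCDK12 (adjusted p = 0.539). Of the procollagen enzymes besides ADAMTS3, ADAMTS2 had 1 to 8 counts and ADAMTS14 had 0 to 13. ADAMTS13, which cuts von Willebrand factor, had 5 to 49 counts, with the overlapping gene REXO4 at 102 to 634.

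Genes around these enzymes were taken as 6 lists of 54 genes present in the table. Of the genes tested, 9 of 30 were called with OHT in shNT (3 higher, 6 lower, 30%) and 27 of 37 with OHT in shCDK12 (17 higher, 10 lower, 73%). In shCDK12 against shNT 23 of 36 were called (6 higher, 17 lower, 63.9%), and with OHT in both arms 19 of 35 (9 higher, 10 lower, 54.3%). The interaction was called for 23 of 36 (17 higher, 6 lower, 63.9%). Of all genes tested, 17.9%, 49.2%, 62.5%, 46.3% and 46.1% were called in these comparisons, in the same order. The share of the lists in shCDK12 against shNT was thus near that of all genes. In the interaction, 1 of 3 inhibitors and anchors, 1 of 3 proprotein convertases, 4 of 5 ADAMTS-like proteins and 3 of 6 matrix substrates were called, and all of them were higher. Other metzincins gave 6 of 9 (5 higher, 1 lower). AP-1, RUNX and ETS factors gave 8 of 10, 3 higher and 5 lower.

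For each list the called genes with the largest absolute interaction are named. LRP1, a receptor that clears MMP and TIMP complexes, had an interaction of 1.84 (SE 0.22, edgeR adjusted p = 1.27e-06), and FURIN, which removes the propeptide of MMP14 and of ADAMTS enzymes, had 0.57 (SE 0.16, adjusted p = 0.00506). PAPLN and ADAMTSL1, which share the noncatalytic domains of ADAMTS enzymes, had 1.94 and 1.78, and the metzincins ADAM19 and ADAM12 had 1.94 and 1.72. FN1, the gene of fibronectin, had 2.31 and NID1, the gene of the basement membrane protein nidogen, 1.83. Both AP-1 genes named moved in opposite directions, FOSL2 with an interaction of 1.80 and FOSB with -1.63. FN1 was also lower by 4.12 on the log2 scale in shCDK12 than in shNT (log2 -4.12, SE 0.10, adjusted p = 1.71e-20). LRP1 and FN1, named for their large positive interactions, had the signs of TIMP1 and MMP14 in shCDK12 against shNT and in both OHT comparisons. Signs of the OHT changes were opposite in 71.2% of all genes tested in both backgrounds. With OHT in both arms, LRP1 was higher in shCDK12 (log2 0.98, edgeR adjusted p = 0.00199). FN1 (-1.78) and TIMP1 (-0.86) were lower there, and MMP14 was at -0.05.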

How the data were processed

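Newly made RNA was measured by EU-seq in 12 libraries of U2OS-MycER cells, 3 for each of 4 groups taken from the treatment labels; a general design text reads as if OHT had been given to all cells. The authors deposited 1 table of raw counts per gene, by NCBI Gene ID. The submitters' processing notes name hg19, STAR 2.7.5c and featureCounts 1.4.5-p1, and the strand setting, gene annotation and handling of the mouse RNA are not given in the sources used here. The table has no mouse rows, so a change in total newly made RNA cannot be seen, and each change is relative to the other genes. RefSeq symbols were found for 23284 of the 23434 rows.

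Counts were tested with edgeR 4.0.16 (R 4.3.3, TMM, quasi-likelihood test, Benjamini-Hochberg over all genes tested, adjusted p under 0.05) after keeping genes whose normalized counts averaged more than 32 in the libraries fitted. Each pair of groups had its own fit of 6 libraries, and the interaction used all 12. A member is called when its adjusted p passes. SE is the absolute log2 fold change over the square root of F. CPM used TMM over 12 libraries. Alternatives were DESeq2 1.42.0, upper-quartile scaling, no filter or a mean above 10, the replicate number as a block, 1 fit of all 12 libraries, each library left out, and thinning to 1251695 counts. An exchange of the labels of shCDK12 and shCDK12+OHT was added after seeing the data. Code was tested on simulated data. All members are accounted for, called ones with their statistics, and of each pathway list the 2 called genes with the largest absolute interaction are named. The members and lists were chosen with earlier results of these data known. A planned search of protein sequences was not run.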

Additional observations from a re-analysis of the deposited data

Results flagged for a closer look

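The response to OHT differed between the shNT and shCDK12 backgrounds for 17 members by the test of the difference itself (edgeR, interaction in all 12 libraries, adjusted p under 0.05), which is what brought them here. The log2 interaction is the change with OHT in shCDK12 minus that in shNT. Among the inhibitors it was 1.98 for TIMP1, 1.79 for TIMP2 and 0.74 for TIMP3. Among the MMP genes it was 2.63 for MMP13, 2.49 for MMP19, 1.89 for MMP14, 1.44 for MMP9, 0.73 for MMP16, 0.70 for MMP3 and 0.58 for MMP24. Among the ADAMTS genes it was 2.19 for ADAMTS15, 2.05 for ADAMTS16, 2.04 for ADAMTS5, 1.11 for ADAMTS3, 0.80 for ADAMTS12 and 0.40 for ADAMTS6. ADAMTS1 had the opposite sign, at -1.37. A positive sign was favoured by the filter for MMP9, MMP13, MMP19, ADAMTS5 and ADAMTS15, as given above. A call of this kind was also made for 46.1% of all genes tested, and CDK12 itself had an interaction of -0.83 (edgeR adjusted p = 4.42e-05), so the direction of OHT in the libraries labelled shCDK12 rests on labels that the targeted gene does not check. With the labels of shCDK12 and shCDK12+OHT exchanged, an alternative chosen after seeing the data, 3 of 20 members were called (6.06% of all genes), and the interaction of TIMP1 was -1.17.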

How the results depend on the processing

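Of 67 calls of a member in a comparison, 42 passed under each other setting in which the member was tested, 25 were lost in at least 1 and 0 changed sign, the exchange of labels apart. Members called with OHT in shNT (8) numbered 13 in 1 fit of all 12 libraries (28.5% of all genes), 4 after thinning (10.5%) and 4 to 9 with a library left out (6.87% to 24.8%). Members called with OHT in shCDK12 (14) numbered 4 after thinning (13.6%) and 13 to 16 with a library left out (41.1% to 51.4%). In shCDK12 against shNT (15) they numbered 24 with no filter (39.6%) and 12 to 14 with a library left out (55.4% to 61.3%), and with OHT in both arms (13) they numbered 5 after thinning (25.5%) and 11 to 15 with a library left out (32.3% to 53.7%). The interaction (17) was called for 4 after thinning (24.2%) and for 14 to 17 with a library left out (40.8% to 50.2%). With the labels of shCDK12 and shCDK12+OHT exchanged (chosen after seeing the data) it was called for 3 (6.06%). Thinned libraries tested 10 to 12 members, which by construction lowers the counts.

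Sign changes occurred for 14 of 30 results that were not called. With OHT in shNT, MMP24 was -0.070 and MMP3 0.10 after thinning, and leaving out a library gave -0.21 to 0.15 for MMP3 and -0.062 to 0.24 for MMP2. With OHT in shCDK12, MMP2 was -0.042 by DESeq2, -0.048 with upper-quartile scaling and -0.065 to 0.079 with a library left out, and thinning gave -0.072 for MMP16 and -0.29 for TIMP3. In shCDK12 against shNT, MMP3 was 0.025 by DESeq2, 0.083 with upper-quartile scaling, 0.017 after thinning and -0.087 to 0.084 with a library left out, where MMP19 gave -0.40 to 0.039 and ADAMTS15 -0.33 to 0.12. With OHT in both arms, TIMP3 was -0.029 by DESeq2, -0.037 with upper-quartile scaling, -0.0003855 in 1 fit, -0.40 after thinning and -0.049 to 0.047 with a library left out, where ADAMTS17 gave -0.20 to 0.14 and MMP14 -0.15 to 0.023. The interaction of MMP25 was -0.057 with upper-quartile scaling and -0.45 to 1.13 with a library left out, and that of MMP2 was 0.029 after thinning and -0.21 to 0.091 with a library left out. The cause was not tested.

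The labels give the replicate numbers no shared culture or batch, and not every same-number correlation was over 0.1, so the numbers were not taken as pairs: correlations of deviations were -0.12 to 0.47 for the same number (5 of 18 over 0.1) and -0.48 to 0.12 for different numbers (3 of 36 over 0.1), and in 22 of 36 choices, where 12 would be expected by number alone, a library correlated best with its own number, which is a hint from the data and not the design. With the replicate number as a block the members called were 8, 15, 15, 13 and 17, in the order above. In shNT+OHT, MMP13, MMP19, MMP25, ADAMTS5 and ADAMTS15 had 4 to 29 counts per library.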
